A study of Mus musculus with 24 samples.

Results

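Tendon and fibrocartilage genes were followed across the regenerating and the non-regenerating digit tip: Scx, Mkx, Tnmd, Cilp, Cilp2, C1qtnf3 and Pamr1. All 7 were among the 15055 genes of the deposited table. The 7 comprise 3 known tendon markers, the cartilage intermediate layer gene Cilp with its paralogue Cilp2, and the secreted-protein genes C1qtnf3 and Pamr1. The set was chosen by the difference between levels at 12 days, where C1qtnf3, Cilp and Pamr1 were much lower after distal than after proximal amputation. Values of that day are therefore given as a description with no test.

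RNA came from hind limb digit tips of C57BL/6 mice aged 10 to 12 weeks, with bone, cartilage, marrow and skin in the same sample. The 6 groups of 4 libraries were distal amputation at 12, 14 and 21 days and proximal amputation at 12, 14 and 21 days. All mice were of 1 strain with no transgene or drug named, every digit had been amputated, and no uninjured digit was included. No label ties the 4 libraries of a group to different mice. The p-values below therefore reflect only library-to-library spread, some of which may be technical.

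Tendon joins muscle to bone, and fibrocartilage forms where tendon enters bone. Scx, a basic helix-loop-helix transcription factor, marks tendon progenitors, and Mkx, an atypical homeobox transcription factor, acts in tendon maturation. Tnmd encodes tenomodulin, a membrane glycoprotein of mature tendon cells. Cilp and Cilp2 encode cartilage matrix glycoproteins, of which Cilp is known to bind TGF-beta 1. C1qtnf3 encodes a secreted C1q and TNF related protein, also called cartducin for its role in chondrocyte precursors. Pamr1 encodes a secreted protein with CUB, EGF-like and peptidase-like domains, first described in regenerating mouse muscle. The adult mouse digit tip is known to regrow after distal amputation and not after proximal amputation.

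Values are deposited whole numbers that behave as normalised expression values, with no unit. Depth is unknown: table totals were 15.3 to 19.4 in units of 1e+06, and upper quartiles were 902.5 to 930.5. On the second principal component, which held 21.8% of the variance, proximal 12 day replicate 1 lay at -24.96, and the other 3 libraries of its group lay at -46.9 to -43.9. Markers of osteoblasts, dermal fibroblasts, epidermis, nail matrix, macrophages, endothelium and Schwann cells were all present. Of 12 skeletal muscle markers 2, Acta1 and Ttn, were in the table; the other 10 were not analysed here.

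Divided by gene length, the 7 genes spanned a wide range of levels. Over the 24 libraries C1qtnf3 averaged 301 per kilobase, Scx 246, Cilp 216, Tnmd 141, Cilp2 78.3, Mkx 37.6 and Pamr1 27.2. These use the lengths in the deposited table, which gives Scx 1136 bases, against 2007 exonic bases in GENCODE M21. With 2007 bases Scx would be at 139 per kilobase, below Cilp and Tnmd. That length equals the whole span of the gene, and dividing the deposited values by it mixes annotations. With the lengths in the deposited table, C1qtnf3 lay above 83.3% of all genes per kilobase and Pamr1 above 26.1%. The highest library exceeded the lowest 35.3-fold for C1qtnf3, 29.9-fold for Pamr1 and 14.8-fold for Cilp, against 4.25-fold for Scx and 4.36-fold for Mkx. In bulk tissue, fewer cells of a type and less RNA per cell cannot be told apart.

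**Figure D1:**
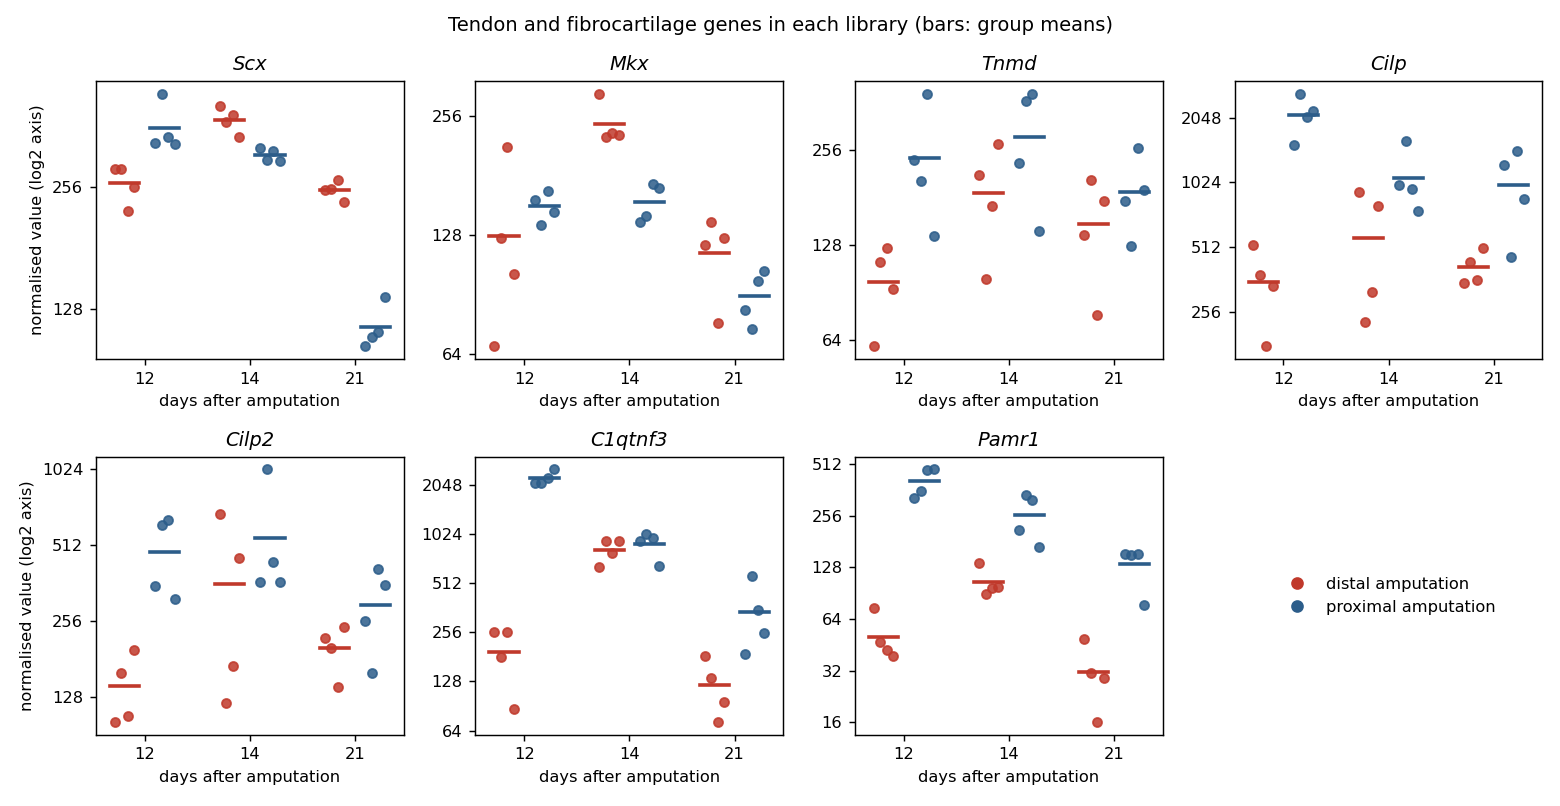
Normalised value of each gene (log2 axis) in each of the 24 libraries by day, with distal amputation in red left of proximal amputation in blue; bars are group means of 4 libraries. C1qtnf3 shows the widest range, from 72 to 2541, and Scx lies at 103 to 137 in the proximal 21 day libraries.

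Scx lies on chromosome 15 (mm10, 76457452 to 76459458, plus strand), inside the span of Bop1 on the opposite strand, a ribosome biogenesis gene with which it shares 0 exonic bases in GENCODE M21. Strand use in counting is unknown, so reads of unspliced Bop1 RNA could not be told apart from reads of Scx if strand was not used. After distal amputation Scx was at 284, 284, 224 and 256 at 12 days, at 408, 373, 387 and 342 at 14 days, and at 253, 254, 267 and 235 at 21 days. After proximal amputation it was at 330, 438, 342 and 329 at 12 days, at 321, 299, 316 and 298 at 14 days, and at 103, 109, 112 and 137 at 21 days. The groups of the 2 levels did not overlap on any day, and distal libraries were below proximal ones at 12 days and above them at 14 and 21 days. For comparison, 12.6% of all genes were lower in distal digits with no overlap at 12 days. Higher with no overlap were 6.28% at 14 days and 8.58% at 21 days. In order of mean Scx value, distal 14 days (377.5) and proximal 12 days (359.75) overlapped, as did distal 12 days (262) and distal 21 days (252). The other neighbours in that order did not overlap. Among these were proximal 14 days at 308.5 and, with the lowest mean, proximal 21 days at 115.

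Mkx lies on chromosome 18 (6934518 to 7004780, minus strand), and its span overlaps that of AC148004.2 on the same strand in GENCODE M21. After distal amputation it was at 67, 126, 214 and 102 at 12 days, at 292, 227, 232 and 230 at 14 days, and at 121, 138, 77 and 126 at 21 days. After proximal amputation it was at 157, 136, 166 and 147 at 12 days, at 138, 143, 173 and 169 at 14 days, and at 83, 74, 98 and 104 at 21 days. Every distal 14 day library stood above every other library of the series, and the share of all genes that did so was not counted. That group's mean of 245 ± 31.2 was followed by 156 ± 17.8 in proximal 14 day digits (SD, n = 4 each), and below it each pair of neighbouring groups overlapped.

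Tnmd, on the X chromosome (133850980 to 133865577, plus strand), varied widely within every group. After distal amputation it was at 61, 113, 125 and 93 at 12 days, at 214, 100, 170 and 267 at 14 days, and at 138, 206, 77 and 177 at 21 days. After proximal amputation it was at 239, 204, 387 and 137 at 12 days, at 234, 367, 385 and 142 at 14 days, and at 177, 127, 261 and 192 at 21 days. The 4 distal 12 day libraries lay below all proximal 12 day libraries, and the levels overlapped at 14 and 21 days. The 3 highest group means were the proximal ones, at 282 (14 days), 242 (12 days) and 189 (21 days), but every pair of neighbours in the order overlapped.

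Cilp lies on chromosome 9 (65265180 to 65280605, plus strand) and Cilp2 on chromosome 8 (69880369 to 69887687, minus strand). Distal libraries held Cilp at 523, 380, 178 and 341 at 12 days, at 929, 230, 319 and 798 at 14 days, and at 351, 440, 363 and 507 at 21 days. Proximal libraries held it at 1523, 2642, 2054 and 2195 at 12 days, at 996, 1593, 953 and 758 at 14 days, and at 1240, 460, 1427 and 860 at 21 days. The 3 proximal groups had the 3 highest means, though neighbouring groups overlapped throughout the order.

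Cilp2 was at 102, 160, 108 and 197 in distal 12 day libraries, at 683, 121, 171 and 458 in distal 14 day libraries, and at 220, 200, 141 and 244 in distal 21 day libraries. In proximal libraries it was at 352, 616, 647 and 315 at 12 days, at 365, 1024, 438 and 367 at 14 days, and at 256, 159, 412 and 356 at 21 days. As for Cilp, distal 14 day replicates 1 and 4 stood well above replicates 2 and 3. The Cilp2 groups overlapped at 14 and 21 days, and every pair of neighbours in its order of means overlapped.

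C1qtnf3 lies on chromosome 15 (10952332 to 10980150, plus strand). In distal libraries it was at 255, 180, 255 and 87 at 12 days, at 638, 928, 787 and 924 at 14 days, and at 184, 135, 72 and 95 at 21 days. In proximal libraries it was at 2105, 2089, 2264 and 2541 at 12 days, at 923, 1024, 972 and 650 at 14 days, and at 188, 568, 349 and 253 at 21 days. It thus had its highest distal values at 14 days and its highest proximal values at 12 days. Proximal 12 days (2250) stood clear of proximal 14 days (892), which overlapped distal 14 days (819). Proximal 21 days (339.5) overlapped distal 12 days (194), which overlapped distal 21 days (121.5).

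Pamr1 lies on chromosome 2 (102550012 to 102643041, plus strand). In distal libraries it was at 74, 47, 42 and 39 at 12 days, at 136, 89, 97 and 99 at 14 days, and at 49, 31, 16 and 29 at 21 days. In proximal libraries it was at 324, 359, 471 and 478 at 12 days, at 213, 341, 316 and 168 at 14 days, and at 153, 151, 153 and 77 at 21 days. On each of the 3 days every distal library lay below every proximal library. Across days, proximal 21 days overlapped distal 14 days.

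Promoters are shown for the 4 members with an entry in the table used, to set their sequences side by side. The sequences come from RefSeq (GRCm38.p6) and run from 250 bases before to 50 after the start site. Capitals mark E-boxes, CANNTG, the letters bound by basic helix-loop-helix factors such as Scx. The pattern CANNTG is found alike on both strands, though the 2 inner letters of a match can differ between strands.
Tnmd: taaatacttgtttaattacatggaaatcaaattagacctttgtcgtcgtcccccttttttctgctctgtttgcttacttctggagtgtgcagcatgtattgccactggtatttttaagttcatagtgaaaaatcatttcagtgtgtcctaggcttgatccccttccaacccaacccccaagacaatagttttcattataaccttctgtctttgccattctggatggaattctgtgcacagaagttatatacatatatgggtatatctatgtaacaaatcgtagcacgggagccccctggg
Cilp: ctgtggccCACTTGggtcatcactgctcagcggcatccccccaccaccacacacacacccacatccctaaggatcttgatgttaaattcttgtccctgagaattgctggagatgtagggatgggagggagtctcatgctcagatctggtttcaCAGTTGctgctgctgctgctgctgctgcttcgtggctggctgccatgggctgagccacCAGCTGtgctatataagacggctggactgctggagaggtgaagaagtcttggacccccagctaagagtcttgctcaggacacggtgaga
Cilp2: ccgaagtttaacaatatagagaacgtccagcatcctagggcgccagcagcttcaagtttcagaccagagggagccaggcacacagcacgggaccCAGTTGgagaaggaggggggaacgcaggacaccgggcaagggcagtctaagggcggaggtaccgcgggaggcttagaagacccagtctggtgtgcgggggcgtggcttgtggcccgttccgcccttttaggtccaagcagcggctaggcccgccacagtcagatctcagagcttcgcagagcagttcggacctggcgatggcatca
C1qtnf3: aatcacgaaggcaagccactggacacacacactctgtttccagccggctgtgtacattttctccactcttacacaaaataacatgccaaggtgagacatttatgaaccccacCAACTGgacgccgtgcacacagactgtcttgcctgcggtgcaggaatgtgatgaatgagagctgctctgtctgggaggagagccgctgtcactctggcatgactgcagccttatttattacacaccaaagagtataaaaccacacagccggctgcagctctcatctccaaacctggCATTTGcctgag
These windows are chrX:133850758-133851057, chr9:65264930-65265229 and chr15:10952082-10952381 on the plus strand and chr8:69887343-69887642 on the minus strand. Cilp held 3 E-boxes, C1qtnf3 2 and Cilp2 1, and none overlapped another. Tnmd held 0 in this window. Of all 32851 promoters in that table, 72.3% held at least 1 E-box, 39.6% at least 2 and 17.6% at least 3. A match describes letters and not binding.

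At 12 days all 7 genes were lower on average after distal than after proximal amputation. C1qtnf3 averaged 194 ± 79.8 in distal and 2250 ± 210 in proximal digits, a log2(value + 1) difference of -3.64. Pamr1 differed by -3.02, Cilp by -2.63, Cilp2 by -1.74, Tnmd by -1.24, Scx by -0.45 and Mkx by -0.37 on that scale. For 6 of the 7, all but Mkx, the groups did not overlap and distal libraries were lower. Over all genes, 12.6% were lower in distal digits with no overlap and 10.4% higher. The members' median was -1.74 and that of all genes -0.03. Since this day chose members, nothing is read from that count. Dermal fibroblast markers summed to 11518 to 12487 in distal and 22908 to 25588 in proximal 12 day libraries. Col6a1 made up most of these sums, with means of 8556 in distal and 19741.5 in proximal digits. Dpp4 (209 and 182) and Pi16 (456.5 and 435) had higher distal means, and the rest of that list lower ones. Nail matrix markers summed to 130172 to 230543 in distal and 9585 to 55281 in proximal 12 day libraries. The part of these tissues in the 12 day differences was not tested. Without proximal replicate 1, the differences ran from -0.35 for Mkx to -3.67 for C1qtnf3. For Mkx, leaving out distal replicate 1 gave -0.11 and leaving out replicate 3 gave -0.66.

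**Figure D2:**
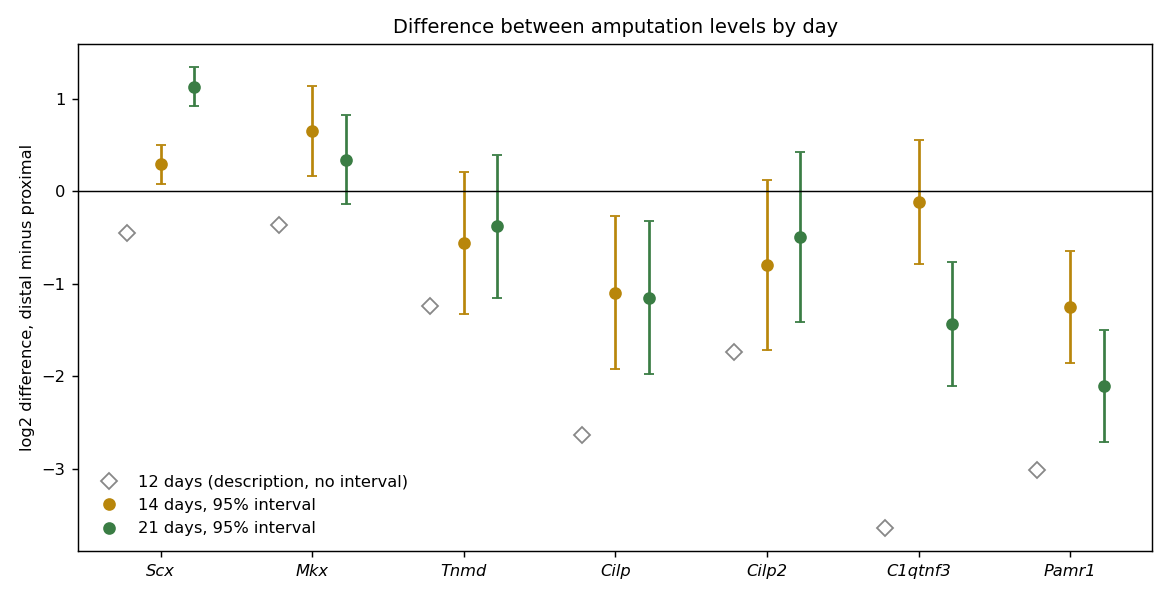
Log2(value + 1) difference, distal minus proximal amputation, for each gene at 12 days (open diamonds, which chose members and carry no interval), 14 days and 21 days (points with 95% intervals from limma). Scx is at -0.45 at 12 days, 0.29 at 14 days and 1.13 at 21 days, and Pamr1 is below 0 on every day.

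A gene passed, or was called, where its limma p adjusted over all 15055 genes was under 0.05. At 14 days Pamr1 was the member that passed between levels. It averaged 105 ± 21.0 in distal and 259.5 ± 82.4 in proximal digits (SD, n = 4 each), a log2 difference of -1.26 ± 0.29 (moderated SE, limma adjusted p = 0.0183), lower in 4 of 4 distal libraries. That call ended without distal replicate 2 or 3 or proximal replicate 2 or 3, with log2 differences of -1.10 to -1.22 and a highest adjusted p = 0.0619. So 1 of 7 members was lower and 0 higher, where 2.32% of all genes were lower and 3.06% higher. The members' median difference was -0.57 and that of all genes 0.00.

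The 2 transcription factor genes had positive differences at 14 days. Scx averaged 377.5 ± 27.7 in distal and 308.5 ± 11.7 in proximal digits, a log2 difference of 0.29 ± 0.10 (95% interval 0.08 to 0.50, limma adjusted p = 0.0988). Mkx averaged 245 ± 31.2 in distal and 156 ± 17.8 in proximal digits, a log2 difference of 0.65 ± 0.23 (0.17 to 1.13, limma adjusted p = 0.103). Neither passed the threshold over all genes, although the groups of each did not overlap. Over all genes, 6.28% were higher in distal digits with no overlap. In a fit of the 14 and 21 day libraries alone, Mkx passed with the same difference (limma adjusted p = 0.04).

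The other 4 members did not pass at 14 days. C1qtnf3 averaged 819 ± 137 in distal and 892 ± 167 in proximal digits, with a log2 difference of -0.12 and a 95% interval of -0.79 to 0.55. Cilp averaged 569 ± 346 in distal and 1075 ± 361 in proximal digits, a difference of -1.10 with an interval of -1.92 to -0.27 (limma adjusted p = 0.108). Without distal replicate 1 Cilp was called, at -1.41 (limma adjusted p = 0.0473). For Cilp2 the interval was -1.72 to 0.12, and for Tnmd -1.33 to 0.20.

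At 21 days Scx was higher and C1qtnf3, Pamr1 and Cilp were lower after distal amputation. Scx averaged 252 ± 13.1 in distal and 115 ± 15.0 in proximal digits, a 2.19-fold difference (log2 1.13 ± 0.10, limma adjusted p = 3.05e-07), higher in 4 of 4 distal libraries. Its call held under all 25 alternative settings, at 0.99 to 1.22. Bop1, whose span encloses Scx, averaged 881 ± 23.2 in distal and 930 ± 60.9 in proximal digits at that time. With the table totals as scaling, the median of all genes moved to -0.19 and Scx stood at 0.99.

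Pamr1 averaged 31.2 ± 13.6 in distal and 133.5 ± 37.7 in proximal digits at 21 days, 4.31-fold lower (log2 -2.11 ± 0.29, limma adjusted p = 6.33e-05). C1qtnf3 averaged 121.5 ± 49.1 in distal and 339.5 ± 166 in proximal digits, 2.71-fold lower (log2 -1.44 ± 0.32, limma adjusted p = 0.0044). The groups of both genes did not overlap, where 10.2% of all genes were lower with no overlap and 8.58% higher, as Scx was. Cilp averaged 415 ± 72.8 in distal and 997 ± 429 in proximal digits (log2 -1.15 ± 0.40, limma adjusted p = 0.0483), and these groups overlapped. The Cilp call was lost under 14 of the 25 alternatives. Among these were leaving out any 1 distal 21 day library, proximal 21 day replicate 1, 3 or 4, or proximal 14 day replicate 1, 3 or 4, with -0.94 and a highest limma adjusted p = 0.149 without proximal 21 day replicate 3.

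Of the 7 members, 3 were lower and 1 higher at 21 days, where 9.43% of all genes were lower and 8.22% higher. The members' median was -0.49 and that of all genes -0.05. Mkx (0.34, 95% interval -0.14 to 0.82), Tnmd (-0.38, -1.15 to 0.39) and Cilp2 (-0.49, -1.41 to 0.43) did not pass. The nail matrix markers moved with level on that day: 8 of 8 were higher, and their summed value was 229328 to 649200 in distal and 49825 to 144762 in proximal libraries. Osteoblast markers summed to 1991 to 4105 in distal and 2632 to 4791 in proximal libraries, with 0 of 8 called in limma and 0 at an unadjusted p under 0.05. Of these 8 osteoblast markers, 6 had a positive difference, and the list median was 0.33. Dermal fibroblast markers summed to 9893 to 11513 in distal and 7320 to 10258 in proximal libraries, with 1 of 8 higher, Col6a1 (0.45 ± 0.12), and 1 lower, Twist2 (-1.27 ± 0.36). The part of these tissues in the members' differences was not tested.

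Between 14 and 21 days both transcription factor genes fell at both levels. Scx fell by 0.58 ± 0.10 on the log2 scale in distal digits (limma adjusted p = 0.000151) and fell by 1.42 ± 0.10 in proximal digits (adjusted p = 7.27e-09). Mkx fell by 1.10 ± 0.23 in distal digits, to 115.5 ± 26.6 at 21 days against 245 ± 31.2 at 14 days (limma adjusted p = 0.000829). In proximal digits Mkx fell by 0.79 ± 0.23, to 89.8 ± 13.7 at 21 days against 156 ± 17.8 at 14 days (limma adjusted p = 0.0139). In each of these 4 comparisons the values of the 2 days did not overlap. Over all genes, 19.5% in distal and 14.9% in proximal digits were lower at 21 days with no overlap, and 11.5% in distal and 10.5% in proximal digits were higher.

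C1qtnf3 had the largest fall among the members in distal digits. In proximal digits its fall and that of Scx were within their errors, and Scx fell more without proximal 21 day replicate 1 (-1.37 for Scx and -1.25 for C1qtnf3). In distal digits it averaged 121.5 ± 49.1 at 21 days against 819 ± 137 at 14 days, 7.04-fold lower (log2 -2.82 ± 0.32, limma adjusted p = 1.29e-06). In proximal digits it averaged 339.5 ± 166 at 21 days against 892 ± 167 at 14 days, 2.81-fold lower (log2 -1.49 ± 0.32, limma adjusted p = 0.00155). Pamr1 fell by 1.80 ± 0.29 in distal digits (limma adjusted p = 6.63e-05) and fell by 0.95 ± 0.29 in proximal digits (adjusted p = 0.0187). The proximal Pamr1 call ended without proximal 14 day replicate 2 or 3 or proximal 21 day replicate 4 (-0.71 to -0.84).

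**Figure D3:**
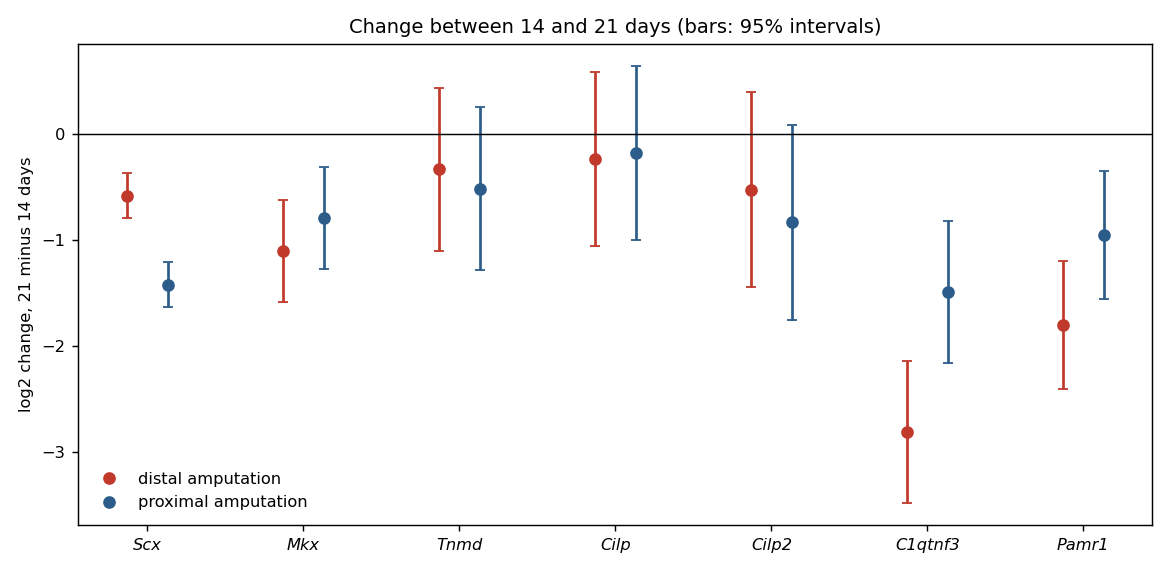
Log2(value + 1) change from 14 to 21 days for each gene, distal amputation in red left of proximal amputation in blue, with 95% intervals from limma. All points lie below 0; the intervals of Tnmd, Cilp and Cilp2 reach above 0 at both levels, and those of Scx do not meet.

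The 3 genes of membrane and cartilage-type matrix did not pass in either level. In distal digits the log2 change from 14 to 21 days was -0.33 for Tnmd (95% interval -1.10 to 0.44), -0.23 for Cilp (-1.06 to 0.59) and -0.52 for Cilp2 (-1.44 to 0.40). In proximal digits it was -0.51 for Tnmd (-1.28 to 0.26), -0.18 for Cilp (-1.003 to 0.65) and -0.83 for Cilp2 (-1.75 to 0.09). All 6 intervals reach below -1 on the log2 scale. Of 7 members 4 were lower in each level, where 21.5% of all genes were lower in distal and 16.3% in proximal digits. No member was higher, where 13.3% and 12.5% of all genes were. The median over members was -0.58 in distal and -0.83 in proximal digits, and that of all genes -0.04 and 0.00.

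Markers of several other tissues moved over the same interval, in both directions. All 8 osteoblast markers were lower at 21 days in distal digits and 7 of 8 in proximal digits, and all 4 endothelial markers were lower at both levels. In distal digits the osteoblast sum was 1991 to 4105 at 21 days and 16090 to 40696 at 14 days. In proximal digits it was 2632 to 4791 at 21 days and 8695 to 24102 at 14 days. Dermal fibroblast markers summed to 9893 to 11513 at 21 days and 18399 to 21942 at 14 days in distal digits. In proximal digits they summed to 7320 to 10258 at 21 days and 19642 to 26310 at 14 days. Col6a1 made up most of these sums, with distal means of 8206 at 21 days and 16272.5 at 14 days. Of the 8 dermal markers, 3 were called lower in distal and 2 in proximal digits, and 0 higher. Those calls stand beside 21.5% and 16.3% of all genes lower. Of 6 epidermis markers, 3 were higher at 21 days in distal digits, Krt1 (1.95 ± 0.38), Krt10 (1.45 ± 0.34) and Flg (1.47 ± 0.36), and 0 were lower; in proximal digits 0 were called in limma (1 at an unadjusted p under 0.05) and all 6 differences were positive. Of 8 nail matrix markers 0 were called in distal digits (0 at an unadjusted p under 0.05) and 3 were lower in proximal digits. The part of these tissues in the members' falls was not tested.

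Scx was the member whose change from 14 to 21 days differed between the levels. The difference, distal minus proximal, was 0.84 ± 0.14 on the log2 scale (limma adjusted p = 0.00715), with a smaller fall in distal digits, and it passed under all 25 alternatives (0.69 to 0.93). Among all genes 1.00% differed in that direction and 0.897% in the other. C1qtnf3 (-1.32, 95% interval -2.27 to -0.37, limma adjusted p = 0.116) and Pamr1 (-0.85, -1.71 to 0.01) did not pass. The intervals were -1.22 to 1.11 for Cilp, -0.99 to 1.61 for Cilp2, -0.90 to 1.27 for Tnmd and -0.99 to 0.37 for Mkx.

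Changes from 12 days use libraries that chose members and are given without a test. From 12 to 14 days all 7 genes had a positive mean difference in distal digits, with C1qtnf3 at 2.17, Pamr1 at 1.07, Mkx at 1.06 and Cilp2 at 1.05 on the log2 scale. The later libraries lay above the earlier ones with no overlap for 4 genes, Scx, Mkx, C1qtnf3 and Pamr1, against 11.9% of all genes, and 8.77% lay below. In proximal digits C1qtnf3 differed by -1.35 and Cilp by -0.995 over the same interval, and Mkx by 0.04. There 2 genes, Scx and C1qtnf3, lay below with no overlap, against 9.70% of all genes, and 8.40% lay above. From 12 to 21 days proximal digits had a negative difference for 7 of 7 members, from -0.30 for Tnmd to -2.84 for C1qtnf3. For 5 of them, all but Tnmd and Cilp2, the ranges did not overlap, against 16.2% of all genes lower and 11.5% higher. Distal digits had differences between -0.73 for Pamr1 and 0.56 for Tnmd, and in all 7 the ranges of 12 and 21 days overlapped. Over all genes, 9.01% were higher and 14.9% lower without overlap.

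Within groups, some members varied together. After subtraction of group means from log2 values, Cilp and Cilp2 had r = 0.77 over the 24 libraries, Tnmd and Cilp2 r = 0.67, Tnmd and Mkx r = 0.55, and C1qtnf3 and Pamr1 r = 0.54. Cilp2 and C1qtnf3 had r = -0.23, and Scx had values between -0.29 (Mkx) and 0.22 (Cilp) with the other members. These are descriptions: the genes share libraries and their normalisation, and 6 group means were removed. In the same libraries Cilp2 had r = 0.65 with Comp, a matrix gene of cartilage that is counted here among the tendon matrix genes. With cartilage and enthesis genes it had r = 0.59 (Chad) and r = 0.51 (Col2a1). It had r = 0.002 with Sox9, r = -0.15 with Col9a1 and r = -0.17 with Acan, the gene of aggrecan. Col2a1 was at 218, 38, 57 and 127 in distal 14 day replicates 1 to 4, high in the libraries where Cilp and Cilp2 were high. Acan went the other way in these libraries, at 1709, 4460, 4439 and 3251.

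**Figure D4:**
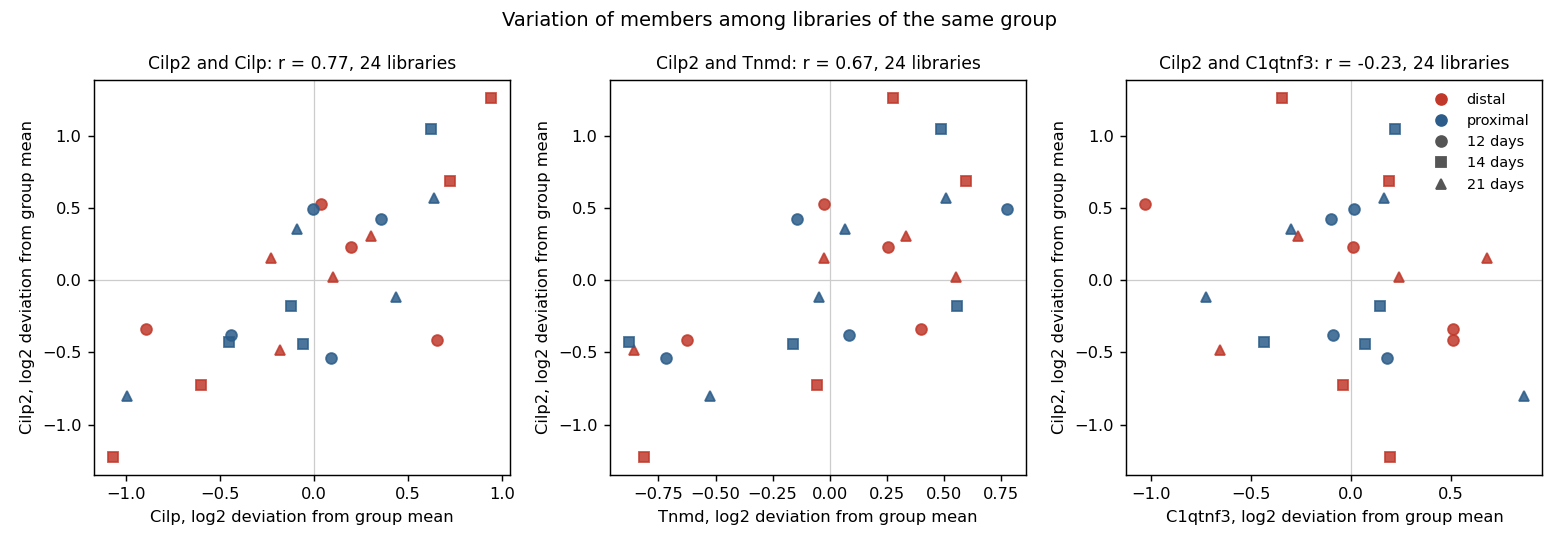
Deviation of each library from its group mean, in log2(value + 1), for Cilp2 against Cilp (r = 0.77), Tnmd (r = 0.67) and C1qtnf3 (r = -0.23). Each point is 1 of 24 libraries, red for distal and blue for proximal amputation, with the day given by its shape.

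Genes most like each member were ranked by Pearson's r of log2 values over all 24 libraries, among 12486 genes with a mean value of at least 50. For C1qtnf3 they were Postn (r = 0.93), the gene of the matrix protein periostin, Tcf4 (0.92) and Zfp521 (0.92). For Pamr1 they were Nbl1 (r = 0.94), a secreted BMP antagonist gene, Podn (0.93) and C1qtnf3 itself (0.90). For Cilp they were Igfbp6 (r = 0.94), an IGF binding protein gene, Axl (0.87) and Lrig3 (0.86).

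For Scx the nearest genes were Grb10 (r = 0.92), Csrp2 (0.90) and Dpysl3 (0.90), and for Mkx Tead2 (0.94), Dnajc18 (0.93) and Dmwd (0.91). Tnmd and Cilp2 were near each other (r = 0.83), and both had Ecm2 first (0.83 for Tnmd and 0.84 for Cilp2). Kank3 (0.83) was the third for Tnmd and Ntn1 (0.82) for Cilp2. These values include differences between groups, and the 12 day libraries that chose members.

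Further tendon matrix genes fell between 14 and 21 days at both levels. Of 20 genes 16 were lower in distal digits and 13 in proximal digits, and 0 were higher in either. Over all genes, 21.5% were lower and 13.3% higher in distal digits, and 16.3% lower and 12.5% higher in proximal digits. Their median was -1.28 in distal and -1.23 in proximal digits, with all genes at -0.04 and 0.00. Col1a1, a chain of the main tendon collagen, fell by 1.93 ± 0.30 on the log2 scale in distal digits (limma adjusted p = 3.46e-05) and fell by 2.09 ± 0.30 in proximal digits (adjusted p = 2.17e-05). Its partner chain gene Col1a2 fell by 1.91 ± 0.30 in distal digits and fell by 2.08 ± 0.30 in proximal digits. Fmod, the fibril-binding proteoglycan fibromodulin, fell by 1.64 ± 0.20 in distal digits, and Col5a1 fell by 1.82 ± 0.14 in proximal digits. Many of these genes are also expressed by bone and dermis.

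**Figure D5:**
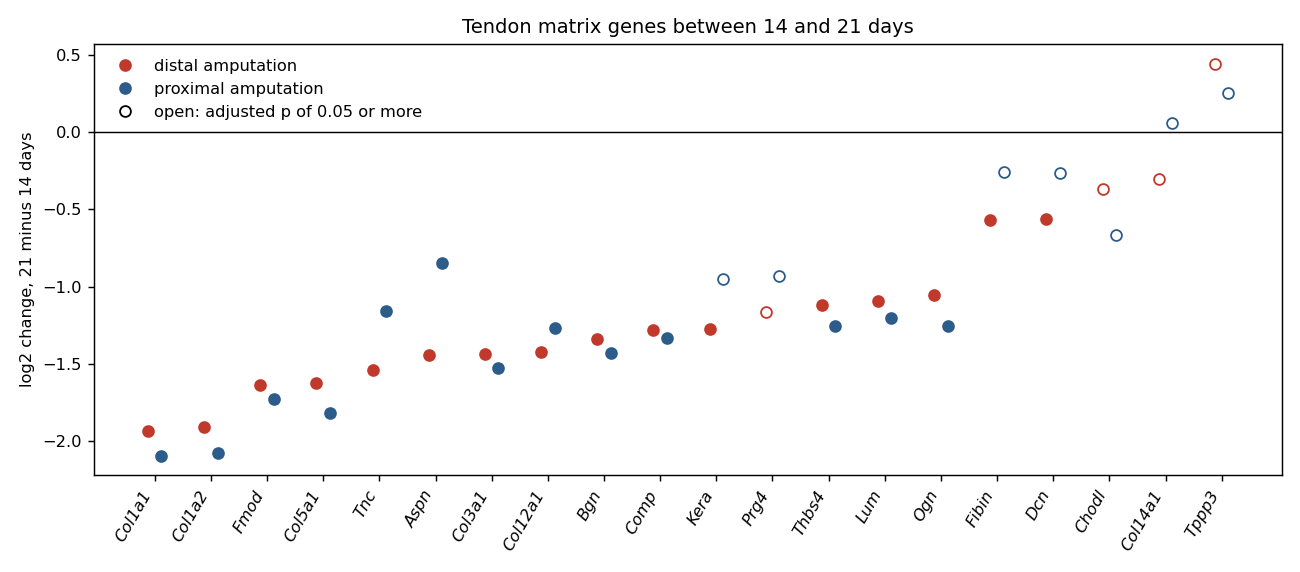
Log2(value + 1) change from 14 to 21 days for 20 tendon matrix genes, distal amputation in red left of proximal amputation in blue; filled points passed an adjusted p of 0.05 in limma and open points did not. Col1a1 and Col1a2 have the largest falls at both levels, and Tppp3 lies above 0 without passing.

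Between levels 1 or 2 of the tendon matrix genes passed on each day. At 14 days 1 of 20 was higher, Lum, the keratan sulphate proteoglycan lumican (1.00 ± 0.20, limma adjusted p = 0.00958), and 1 lower, the tendon sheath gene Tppp3 (-0.74 ± 0.20, adjusted p = 0.034), where 3.06% of all genes were higher and 2.32% lower. At 21 days Lum was higher by 1.11 ± 0.20 (limma adjusted p = 0.000842) and 0 were lower, where 8.22% of all genes were higher and 9.43% lower. The list medians were 0.11 and 0.13 on these days.

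Among 16 regulators of tendon and of the TGF-beta and IGF inputs, 13 were in the table. From 14 to 21 days 8 fell and 2 rose in distal digits, and 6 fell and 2 rose in proximal digits. Of all genes, 21.5% fell and 13.3% rose in distal digits, and 16.3% fell and 12.5% rose in proximal digits, so the share of regulators that rose was near that of all genes. The immediate early gene Egr2, a transcription factor that acts on tendon collagen, rose by 1.09 ± 0.37 in distal digits (limma adjusted p = 0.0265) and by 2.76 ± 0.37 in proximal digits (adjusted p = 1.23e-05). Egr1, a related factor, rose by 1.04 ± 0.31 in distal digits. The ligand gene Tgfb3 fell by 1.11 ± 0.15 in proximal digits. At 21 days Egr2 (-1.86 ± 0.37) and the receptor gene Tgfbr2 (-0.32 ± 0.09) were lower and Gdf6 (0.74 ± 0.25), a BMP family ligand gene, was higher in distal than in proximal digits. At 14 days 0 of 13 passed between levels in limma, with 2 at an unadjusted p under 0.05.

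Of 12 cartilage and enthesis genes 10 were in the table. From 14 to 21 days 5 fell and 1 rose in distal digits, and 3 fell in proximal digits, beside the same shares of all genes (21.5% and 13.3% in distal digits, 16.3% falling in proximal digits). Acan fell by 1.62 ± 0.43 in distal digits (limma adjusted p = 0.00508) and fell by 2.43 ± 0.43 in proximal digits (adjusted p = 0.000225), as did Hapln1, the link protein gene (-1.496 ± 0.44 in distal and -2.19 ± 0.44 in proximal digits). Gli1, a hedgehog target, fell by 0.87 ± 0.26 in distal digits, and Col9a1 fell by 1.98 ± 0.68 in proximal digits. Hapln1 was higher in distal than in proximal digits at 21 days by 1.89 ± 0.44 (limma adjusted p = 0.00559), and Bmp4 by 0.58 ± 0.13, after 0.62 ± 0.13 at 14 days.

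Of 8 relatives of C1qtnf3 in the C1q and TNF related family, 7 were in the table. C1qtnf6 fell from 14 to 21 days by 1.38 ± 0.20 in distal digits and fell by 1.66 ± 0.20 in proximal digits. C1qtnf1 fell by 1.12 ± 0.10 in distal digits and fell by 1.22 ± 0.10 in proximal digits. C1qtnf4 rose by 0.82 ± 0.17 in distal digits, and C1qtnf12 rose by 0.54 ± 0.12 in proximal digits. Counting all 7, 2 fell and 1 rose in distal digits, and 2 fell and 2 rose in proximal digits. In distal digits these shares lay near the 21.5% and 13.3% of all genes, and in proximal digits 16.3% of all genes fell and 12.5% rose. At 21 days C1qtnf1 was higher (0.37 ± 0.10) and C1qtnf12 lower (-0.49 ± 0.12) in distal than in proximal digits, and at 14 days 0 of 7 passed in limma, with 2 at an unadjusted p under 0.05.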

How the data were processed

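Per the submitters' processing notes, reads were handled with cutadapt, STAR 2.5.4b and featureCounts 1.6.3 of Subread on build mm10, after ribosomal RNA depletion. No source used here states if strand was used in counting. The values deposited by the authors are whole, yet a score and not reads: across 9650 genes with all values above 100, their least variable direction over libraries had a standard deviation of 0.00675 in natural logs, where Poisson sampling gives 0.0455. The next least variable direction had 0.0428, near that of Poisson sampling, so only the least variable one lay far below it. The values look normalised and then rounded, so no count model was used. A gene length column, also deposited by the authors, gave levels per kilobase.

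log2(value + 1) was fitted in limma 3.58.1 (R 4.3.3) over 24 libraries and 6 group means (lmFit, eBayes with a trend), with Benjamini-Hochberg adjustment over 15055 genes and a threshold of 0.05; errors of log2 values are moderated standard errors, and low genes are understated. No filter was applied, and all 7 members were tested. The members, gene lists and tests were chosen with earlier results of these data known. Comparisons whose means use 12 day libraries carry no test, but those libraries enter the spread behind every test of the main fit. Named genes are the members, for each the 3 genes of highest Pearson's r, and per list up to 3 called genes with the largest change per comparison; 1 gene that this rule names among the tendon regulators is not reported here. Alternatives were 2 scalings, pseudocounts of 0.5 and 8, a mean value of at least 50, the 14 and 21 day libraries alone, the replicate number as a block, sample quality weights, the direction of least spread as a covariate, and each of 16 libraries left out. Alternatives for the 12 day values and for gene lengths were chosen after seeing the data.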

Additional observations from a re-analysis of the deposited data

Results flagged for a closer look

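Among 42 sets of 4 libraries (7 members in 6 groups), 4 held a library far from the other 3; chance gives about 1 in 20. Scx was at 438 in proximal 12 day replicate 2, with the others at 329 to 342. Mkx was at 292 in distal 14 day replicate 1, with the others at 227 to 232. Without it, the log2 difference between levels at 14 days was 0.56. Cilp2 was at 1024 in proximal 14 day replicate 2, with the others at 365 to 438. Without it, the difference at 14 days was -0.45, against -0.80 with it, and neither passed. Pamr1 was at 77 in proximal 21 day replicate 4, with the others at 151 to 153. Without it, the log2 difference between levels at 21 days was -2.35, and the change from 14 to 21 days in proximal digits no longer passed.

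The change of Scx from 14 to 21 days differed between levels by the test of the difference itself (log2 0.84 ± 0.14, limma adjusted p = 0.00715), with all 4 distal libraries above all 4 proximal libraries at 21 days.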

How the results depend on the processing

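Of 875 tested member values under alternatives, 837 kept their direction and side of the threshold, 21 lost and 2 gained a call, and 15 changed sign; all 84 values of 12 days moved by less than the spread between replicates. Values that changed sign were uncalled throughout: with a library left out, the change of Cilp at 21 against 14 days ran from -0.59 to 0.0799 in distal and from -0.39 to 0.15 in proximal digits. The difference between levels in that change ran from -0.41 to 0.26 for Cilp, from -0.0880 to 0.48 for Tnmd and from -0.10 to 0.73 for Cilp2. Members called at 14 days between levels numbered 1, with 2 in the fit of 14 and 21 day libraries alone and 0 to 2 with a library left out.

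The 811 genes called between levels at 14 days became 450 with table totals and 277 to 950 with a library left out (distal replicate 2, 277; distal replicate 3, 302; proximal replicates 1, 2 and 3, 380, 397 and 322). The 2656 genes at 21 days (1237 higher, 1419 lower) became 4186 with table totals (627 and 3559, median of all genes -0.19) and split 1579 and 1031 with median-ratio factors. For 21 against 14 days, distal digits split 1996 and 3238, and 2742 and 2758 with median-ratio factors. Proximal digits split 1876 and 2452, and 3015 and 1563 with table totals (median 0.11). The 286 genes whose change differed between levels (151 and 135) became 741 with table totals (91 and 650, median -0.20), 266 and 103 with median-ratio factors, 164 with the 14 and 21 day libraries alone, 181 with the direction of least spread as covariate, and 105 to 460 with a library left out, moving by over 1.5 times for 10 of 16 libraries. The cause was not tested.

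Same-numbered libraries of the 2 levels deviated together in 2 of 12 pairs by r over 0.1 (-0.19 to 0.19), so numbers were not taken as pairs. With the replicate block, calls numbered 700 (14 days), 2653 (21 days), 5178 and 4312 (21 against 14 days, distal and proximal) and 270, and Cilp at 21 days was not called (-1.15, limma adjusted p = 0.0564). Depth is unknown, so no counting error was given.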
